A study of Mus musculus with 7 samples.

Results

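Chromosome segregation in mouse small cell lung cancer was followed here through 48 genes of mitosis and the kinetochore. The genes were taken by symbol from a fixed list and were all present in the 4 gene tables, which name 56941 genes each. By role they comprised 10 genes of the kinetochore and centromere, 9 of mitotic kinases and the spindle checkpoint, 5 of cyclins, a phosphatase and an anaphase activator, 9 of kinesin motors, 6 of spindle assembly and microtubule binding, 5 of cytokinesis, and 4 of chromosome structure and repair. Fresh-frozen endpoint lung tumors of 4 male mice had been profiled by single-nucleus RNA sequencing with split-pool barcoding. Both RP animals (RP1 and RP2) carried Rb1 fl/fl and Trp53 fl/fl alleles, and both RPC animals (RPC1 and RPC2) additionally lacked Casp8, written Casp8-/- in the labels although the allele was conditional. Tumors of all 4 animals were started by inhaled adenovirus in which a general viral promoter drives Cre, so the promoter did not limit recombination to 1 lung cell type, and the labels give no age. Each of the 7 sublibraries pooled nuclei of all 4 animals, and no barcode was shared between animals. The animal was therefore the replicate (n = 2 per genotype), and test results measure only the spread between these animals.

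After filtering, 38254 nuclei remained. Tumor-like nuclei numbered 7131 and 7243 in the RP animals and 9165 and 8668 in the RPC animals, with medians of 2345, 2282, 3346 and 2842 transcripts. Wherever 4 values follow each other, they belong to RP1, RP2, RPC1 and RPC2 in that order. Depth was thus higher in both RPC animals, and the ribosomal transcript Rn18s-rs5 took more of the transcripts in RP1 (9.39%) and RP2 (7.80%) than in RPC1 (2.79%) and RPC2 (5.09%). Shares of nuclei were for this reason taken after each nucleus had been thinned at random to 1000 transcripts, which left out 788, 737, 139 and 428 shallower tumor-like nuclei. Levels of Casp8 in sums of tumor-like nuclei, in counts scaled to library size (CPM), were 58.8 and 60.9 in the RP animals and 88.7 and 66.1 in the RPC animals. These counts cover the whole gene, and the deleted part was not resolved, so they do not check the genotype.

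Mitosis distributes replicated chromosomes to daughter cells. The kinetochore is the protein assembly on each centromere that holds spindle microtubules, and its outer KMN network (Knl1, the Mis12 complex, and the Ndc80 complex of Ndc80, Nuf2, Spc24 and Spc25) makes that contact. Cyclin B with Cdk1 drives entry into mitosis, the spindle checkpoint delays anaphase until kinetochores are attached, and Cdc20 then activates the anaphase-promoting complex. Small cell lung cancer is known for very rapid division, and the loss of Rb1, which defines this model, removes a main brake on cell cycle genes.

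Transcription of many such genes peaks late in the cell cycle, and their promoters are known for a TTTGAA element (the cell cycle genes homology region) and for CCAAT boxes. Promoter sequence was found in the RefSeq tables (GRCm38.p6) for 39 of the 48 genes, with 41 start sites, and the 150 bases upstream of each start were searched on both strands. TTTGAA or its reverse complement TTCAAA was present in 13 of the 41 windows (31.7%), against 9.07% of 32851 windows of the same length from all genes. CCAAT or ATTGG was present in 29 windows (70.7%), against 24.5% of all windows, and 16 windows (39.0%) held at least 2 of them, against 6.02%. Both elements occurred in 11 windows (26.8%), against 2.24%, and no matches shared a base within a window. Ect2 and Prc1 have 2 start sites each, whose windows overlap, so that sites they share were counted in both windows. Counted by gene, 12 of the 39 held TTTGAA, 27 held CCAAT, 15 held at least 2 CCAAT in 1 window, and 10 held both elements. Over all matches in the 41 windows, the median match of TTTGAA lay 30 bases upstream of the start and that of CCAAT 55 bases. A match describes letters only, and no binding was measured. The windows printed here belong to genes whose values are reported below: Ckap2 at chr8:22185820-22185969 (minus strand), Mki67 at chr7:135716380-135716529 (minus strand), Parpbp at chr10:88146942-88147091 (minus strand), Cdk1 at chr10:69352913-69353062 (minus strand) and Top2a at chr11:99024190-99024339 (minus strand) held both elements, Cenpf at chr1:189688087-189688236 (minus strand) held CCAAT alone, and Plk4 at chr3:40799801-40799950 (plus strand) held neither. Capitals mark the matches, and each sequence reads 5′ to 3′ toward the start site.
Ckap2: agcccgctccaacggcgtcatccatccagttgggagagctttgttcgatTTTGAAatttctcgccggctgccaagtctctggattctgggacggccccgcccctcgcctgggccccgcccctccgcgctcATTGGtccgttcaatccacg
Mki67: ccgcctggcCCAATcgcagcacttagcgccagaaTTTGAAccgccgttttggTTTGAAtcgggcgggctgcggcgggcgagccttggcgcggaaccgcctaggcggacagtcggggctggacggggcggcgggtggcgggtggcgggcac
Parpbp: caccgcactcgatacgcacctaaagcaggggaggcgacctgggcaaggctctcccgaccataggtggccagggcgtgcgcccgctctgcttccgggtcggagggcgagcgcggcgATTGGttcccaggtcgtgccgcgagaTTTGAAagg
Cdk1: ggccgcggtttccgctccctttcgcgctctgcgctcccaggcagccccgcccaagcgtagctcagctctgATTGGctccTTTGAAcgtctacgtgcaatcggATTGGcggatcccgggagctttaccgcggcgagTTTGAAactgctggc
Top2a: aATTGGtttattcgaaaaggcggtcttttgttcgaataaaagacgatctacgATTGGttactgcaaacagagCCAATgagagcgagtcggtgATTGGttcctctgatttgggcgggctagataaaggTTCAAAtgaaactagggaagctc
Cenpf: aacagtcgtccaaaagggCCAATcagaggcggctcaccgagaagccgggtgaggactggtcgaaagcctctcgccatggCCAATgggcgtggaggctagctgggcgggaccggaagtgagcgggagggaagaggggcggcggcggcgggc
Plk4: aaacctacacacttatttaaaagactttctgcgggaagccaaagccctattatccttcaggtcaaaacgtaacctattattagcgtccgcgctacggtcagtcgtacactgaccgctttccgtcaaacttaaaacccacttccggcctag

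Mitotic transcripts were more frequent in tumor-like nuclei than in the normal nuclei with the least tumor RNA. Neuroendocrine markers averaged 5.54, 4.38, 6.35 and 6.60 transcripts per 1000 in the tumor-like nuclei, and 1.07, 0.784, 0.732 and 1.18 in the normal nuclei with the least tumor RNA (normal clusters with a low neuroendocrine score, a class formed after the clusters had been seen). In these normal nuclei the 48 genes together averaged 2.34, 1.57, 2.17 and 1.74 transcripts per 1000, against 5.37, 4.42, 5.71 and 6.68 in tumor-like nuclei. The tumor-like mean was thus at least 2 times the normal mean in each animal. All 48 genes were seen in a larger share of tumor-like nuclei than of these normal nuclei in each of the 4 animals, a pattern that 36.4% of the 10220 genes seen in at least 0.5% of tumor-like nuclei of each animal showed. For 29 of the 48, the exact 95% intervals of both shares, which cover counting error only, were also apart in each animal.

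Ckap2, a spindle-associated microtubule stabilizer, was found in 9.62% and 8.04% of the tumor-like nuclei of RP and in 12.5% and 15.1% of those of RPC. In the normal nuclei its shares were 2.62%, 2.04%, 2.72% and 3.68%. The separation was narrower for Mki67, which coats mitotic chromosomes and is the usual proliferation marker. Its transcripts were seen in 40.4%, 35.5%, 47.9% and 56.8% of the tumor-like class, and in 21.7%, 15.9%, 23.5% and 25.7% of the normal nuclei. Both classes had similar depth, with medians of 2593, 2507, 3388.5 and 2967 transcripts in the tumor-like nuclei counted and 2228, 2162, 3005 and 2278 in the normal ones. Among the clusters with low tumor RNA, alveolar type 1-like nuclei held means of 1.27, 0.459, 0.667 and 1.03 mitotic transcripts per 1000 over 18 to 68 nuclei per animal, and macrophage- or monocyte-like nuclei held 2.55, 2.25, 1.96 and 1.72. With the clusters of higher neuroendocrine score included, these means were 1.83, 1.07, 2.36 and 2.13 for the alveolar class and 3.43, 3.22, 3.53 and 3.96 for the macrophage class. All B cell-like nuclei, 28 to 108 per animal, held means of 4.35, 5.00, 4.08 and 5.66. In RP2 this exceeded the tumor-like mean of 4.42, and in RP1, RPC1 and RPC2 it was below the tumor-like mean. Whether the transcripts in normal nuclei were their own or free tumor RNA was not tested.

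Against endothelial-like nuclei alone, 29 of the 48 genes were seen more often in tumor-like nuclei in each animal, where 26.3% of 10220 genes were. The intervals were apart in all 4 animals for 0 of the 48, with 84 to 153 endothelial-like nuclei per animal. Clusters of endothelial-like nuclei with a neuroendocrine score near that of tumor nuclei were among those counted. Restricting the class to clusters with low tumor RNA, chosen after the data had been seen, gave 36 of 48.

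Within the tumor, the 48 genes appeared together in the same nuclei. For each gene, tumor-like nuclei with at least 10 transcripts of the other 47 were set against those with at most 1. All 48 genes were seen over 2 times as often in the first set in each animal, and 3.02% of 10220 genes were seen over 2 times as often in nuclei rich in the 48. The lowest ratio of the 4 animals had a median of 11.8 over the genes and ranged from 2.44 to 30.9. Since the nuclei were sorted on genes of the same process, the ratios are a description without a test.

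The sharpest contrasts were shown by Iqgap3, a scaffold protein that acts in cytokinesis, and Cdc25c, each with a lowest ratio of 30.9. Iqgap3 was seen in 15.9%, 15.5%, 23.0% and 17.5% of the high nuclei, and in 0.465%, 0.503%, 0.193% and 0.362% of the low ones. Cdc25c, the phosphatase that activates Cdk1, was seen in 9.97%, 9.99%, 16.9% and 14.2% of the high nuclei and in 0.254%, 0.323%, 0.515% and 0.317% of the low ones. The next ratios belonged to the checkpoint kinase Bub1 (lowest 28.1), to Cenpa, the histone variant that marks centromeres (25.8), and to Parpbp, a regulator of homologous recombination (24.4). All 5 were thus rare where other mitotic transcripts were lacking, and each was seen in 6 to 28 low nuclei per animal.

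At the other end, Mki67 was seen in 70.0%, 71.9%, 83.6% and 88.5% of the high nuclei and also in 23.2%, 20.4%, 31.1% and 36.3% of the low ones. Its ratio was 2.44 to 3.53. Ckap5, a microtubule polymerase that cells also use outside mitosis, had 37.4%, 37.0%, 45.0% and 42.3% in high and 12.2%, 11.6%, 14.0% and 13.1% in low nuclei. Ratios for Plk4, the kinase of centriole duplication, were 4.05 to 8.13, those of Spc24, an Ndc80 complex subunit, 4.37 to 8.24, and those of Top2a, the topoisomerase that untangles sister chromatids, 4.56 to 5.82. By role, the median lowest ratio was 14.2 for cytokinesis, 13.6 for kinesin motors, 11.8 for kinases and checkpoint, 9.79 for spindle assembly, 9.52 for kinetochore and centromere, 9.27 for chromosome structure and repair, and 8.37 for cyclins, phosphatase and anaphase activator. In the last group, single animals set the lowest ratio of some genes. Cdc20 had 8.37 in RPC2 and 13.0 to 24.7 in the other animals. Ccnb1 had 6.10 in RP1 and 17.1 to 20.8 in the others.

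**Figure D1:**
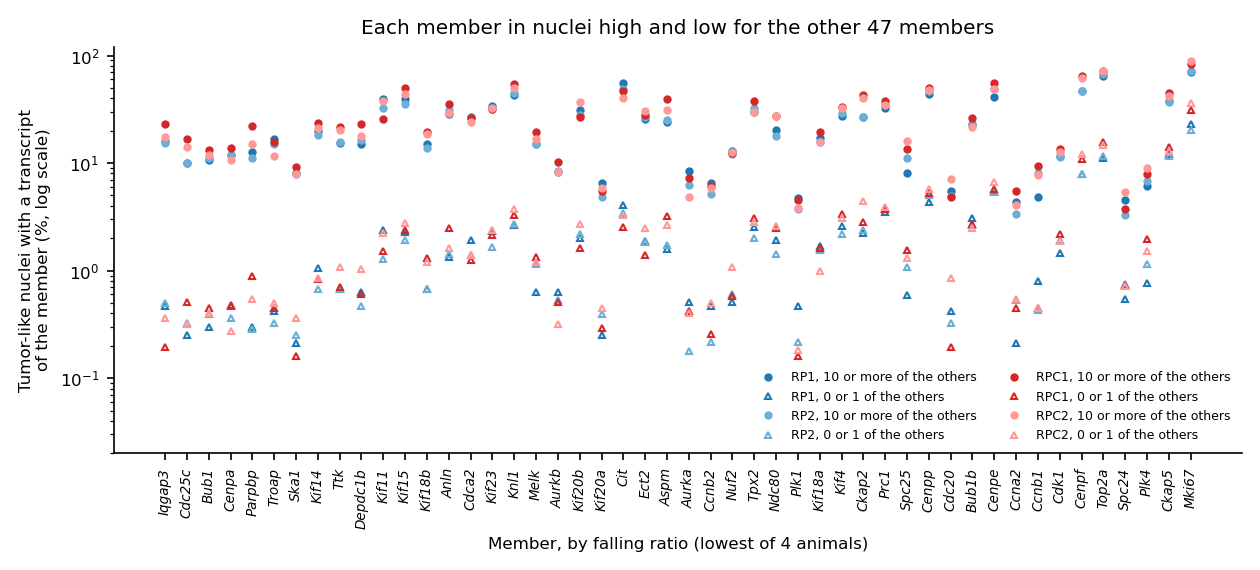
Percent of tumor-like nuclei in which each of the 48 genes was seen (log axis), per animal, in nuclei with at least 10 transcripts of the other 47 genes (filled circles) and with at most 1 (open triangles), both at 1000 transcripts. Circles lie above triangles for each gene and animal, and the gap narrows from Iqgap3 at the left (lowest ratio 30.9) to Mki67 at the right (2.44).

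Other gene lists varied with the number of transcripts of the 48 genes in a nucleus. Ordered by the number of transcripts of the 48 genes per 1000 (0 to 1, 2 to 4, 5 to 9, 10 to 19, and 20 or more), the other 67 mitosis genes of a separate list averaged 2.68, 2.74, 3.07 and 2.96 transcripts per 1000 in the lowest bin. In the highest bin they averaged 9.18, 9.29, 11.1 and 11.1. DNA replication genes, 30 genes such as those of the Mcm helicase, took another course. They averaged 2.46, 2.31, 2.80 and 2.37 in the lowest bin, 2.87, 2.69, 3.59 and 3.49 at 5 to 9, and 2.06, 2.14, 2.39 and 2.35 at 20 or more. Replication transcripts were therefore most frequent in nuclei with intermediate mitotic scores and lower again in the most mitotic ones, in each animal. Neuroendocrine markers were lower in the highest than in the lowest bin in each animal, at 5.00, 3.58, 5.33 and 5.26 against 6.04, 4.77, 7.00 and 7.39. Markers of normal cell types stayed between 1.36 and 2.10 per 1000 over all bins and animals. Before thinning, median depth was 2175 to 2893 transcripts in the lowest bin and 2934 to 6913 at 10 to 19. At 20 or more it was 2711 to 3929, and the part of depth in these differences was not tested.

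**Figure D2:**
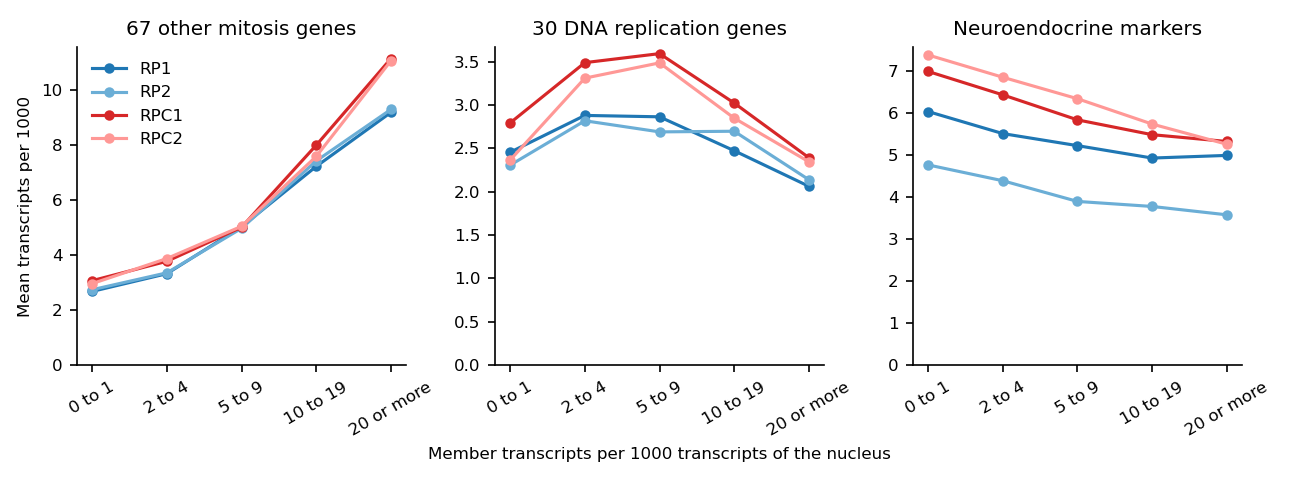
Mean transcripts per 1000 of 67 other mitosis genes, 30 DNA replication genes and 14 neuroendocrine markers in tumor-like nuclei, by transcripts of the 48 genes in the nucleus, with 1 line per animal. Other mitosis genes increase from 2.68 to 9.18 in RP1, replication genes are highest between 2 and 9 mitotic transcripts, and neuroendocrine markers are lower at 20 or more than at 0 to 1 in each animal.

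Among genes that are not in the list, 10 were chosen by the largest ratio of CPM between nuclei with at least 10 and nuclei with at most 1 of the mitotic transcripts, by the lowest of the 4 animals. Kif2c, a microtubule-depolymerizing kinesin of the centromere, had 146, 113, 96.2 and 132 CPM in the high nuclei and 5.46, 5.00, 4.53 and 6.51 CPM in the low ones. The lowest log2 ratio was 4.13 for Kif2c, 4.05 for Espl1, the protease that cleaves cohesin, and 3.99 for Efcab11. It was 3.91 for Ankle1, 3.84 for Cdca8, a subunit of the chromosomal passenger complex, and 3.82 for Cdkn3, a phosphatase of cyclin-dependent kinases. Shcbp1 (3.79), the helicase Pif1 (3.77) and Dlgap5, a spindle protein (3.71), followed. Over the 48 genes themselves, this log2 ratio had a median of 3.62 (1.97 to 4.75), and over 8690 genes with at least 50 transcripts in the high nuclei of each animal it had a median of -0.17.

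Next, the size of the mitotic compartment was compared between genotypes. Nuclei with at least 10 of the mitotic transcripts per 1000, called mitosis-high, made up 22.0% of the tumor-like class in RP1 (95% interval 21.0 to 23.1), 16.4% in RP2 (15.5 to 17.4), 19.5% in RPC1 (18.7 to 20.3) and 24.1% in RPC2 (23.2 to 25.0). RP averaged 19.2% ± 3.97 and RPC 21.8% ± 3.25 (SD, n = 2 each), and the animals of the genotypes overlapped. RP1 and RP2 lay further apart than the genotype means, which differed by 2.55 points. That difference ranged from -0.251 points without RP2 to 5.36 points without RP1. Between 494 and 700 nuclei per animal lay near the limit, with 8 to 11 transcripts.

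The genotypes were apart at the extremes of the score. Nuclei with 20 or more mitotic transcripts per 1000 made up 4.71% (4.21 to 5.26) and 3.52% (3.09 to 4.00) in the RP animals, and 8.53% (7.96 to 9.13) and 9.28% (8.67 to 9.93) in the RPC animals. RP averaged 4.12% ± 0.844 and RPC 8.91% ± 0.533 (SD, n = 2 each). Both RPC animals exceeded both RP animals in each of the 7 sublibraries, with at most 5.56% in RP and at least 7.49% in RPC. The sublibraries hold nuclei of the same 4 animals and are not replicates. Without Mki67 in the score, an alternative added after the data had been seen, the shares were 2.90%, 2.00%, 6.84% and 6.46%. Nuclei with at most 1 of the transcripts were fewer in RPC1 (34.3%) and RPC2 (26.7%) than in RP1 (37.2%) and RP2 (42.7%). Mean scores were 5.37 and 4.42 in the RP animals and 5.71 and 6.68 in the RPC animals. These shares are descriptions of 2 animals per genotype, and no test was made of a score over genes chosen with results known. Depth and Rn18s-rs5 also differed between the genotypes, and among nuclei with at most 10% Rn18s-rs5 the difference at 10 or more transcripts was 2.14 points. The part of Rn18s-rs5 in the separation at 20 or more was not tested.

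**Figure D3:**
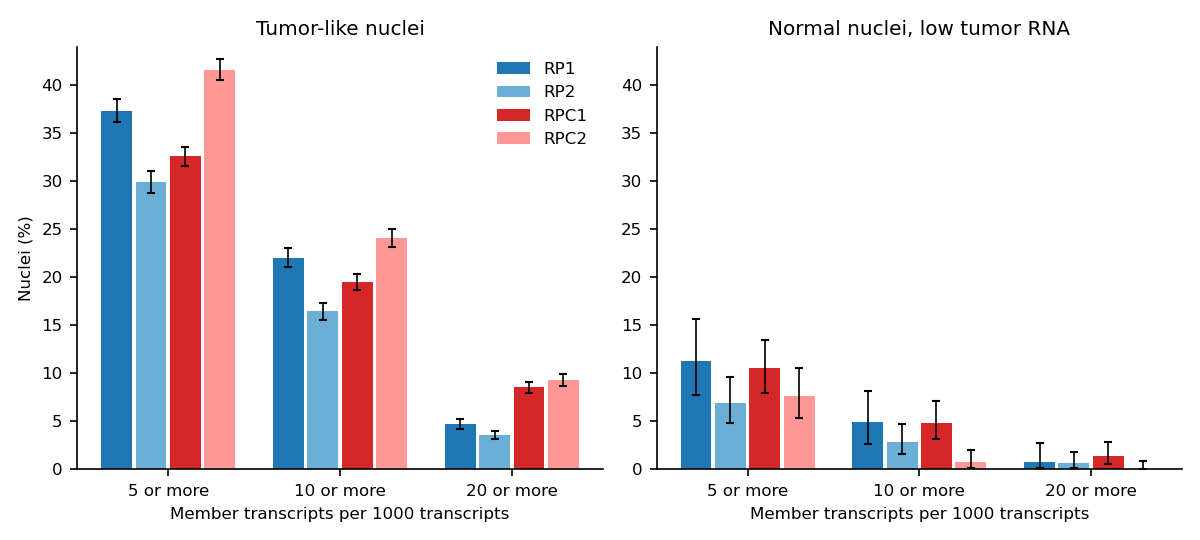
Percent of nuclei with at least 5, 10 and 20 transcripts of the 48 genes per 1000, in tumor-like nuclei (left) and in normal nuclei with low tumor RNA (right), per animal with exact 95% intervals. The animals of the genotypes overlap at 5 and 10 in the tumor and are apart at 20 (4.71% and 3.52% in RP, 8.53% and 9.28% in RPC).

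For single genes, transcripts were added up over the tumor-like nuclei of an animal and RPC was tested against RP over 20107 genes, all 48 among them. In such sums, fewer dividing cells and less of the transcript per dividing cell cannot be told apart. No gene of the 48 passed the edgeR quasi-likelihood test at an adjusted p under 0.05, and 0% of all tested genes did. At an unadjusted p under 0.05, 8 of the 48 were higher in RPC (7.4% of all tested genes) and none was lower (7.73%). DESeq2 called 1 of the 48, Ckap2, and 1.81% of 36596 genes. The log2 fold change was above 0 for 40 of the 48 genes (49% of all tested genes) with a median of 0.22 (-0.01 over all tested genes). Both RPC animals lay above both RP animals for 23 of the 48 genes (24.7% of all tested genes) and below them for 0 (25.7%), and the animals overlapped for 25.

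The RP animals differed from each other by more than the genotypes did. RP1 had the higher level for 47 of the 48 genes, with a median log2 difference from RP2 of 0.41 (-0.06 to 0.83), against 51.3% of all tested genes and a median of 0.01. RPC2 was above RPC1 for 32 of the 48 with a median of 0.11, against 50.2% of all tested genes and a median of 0. Without RP2 the median over the 48 genes was 0.06, with 25 of 48 genes above 0, and without RP1 it was 0.43, with 46 of 48 above 0.

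**Figure D4:**
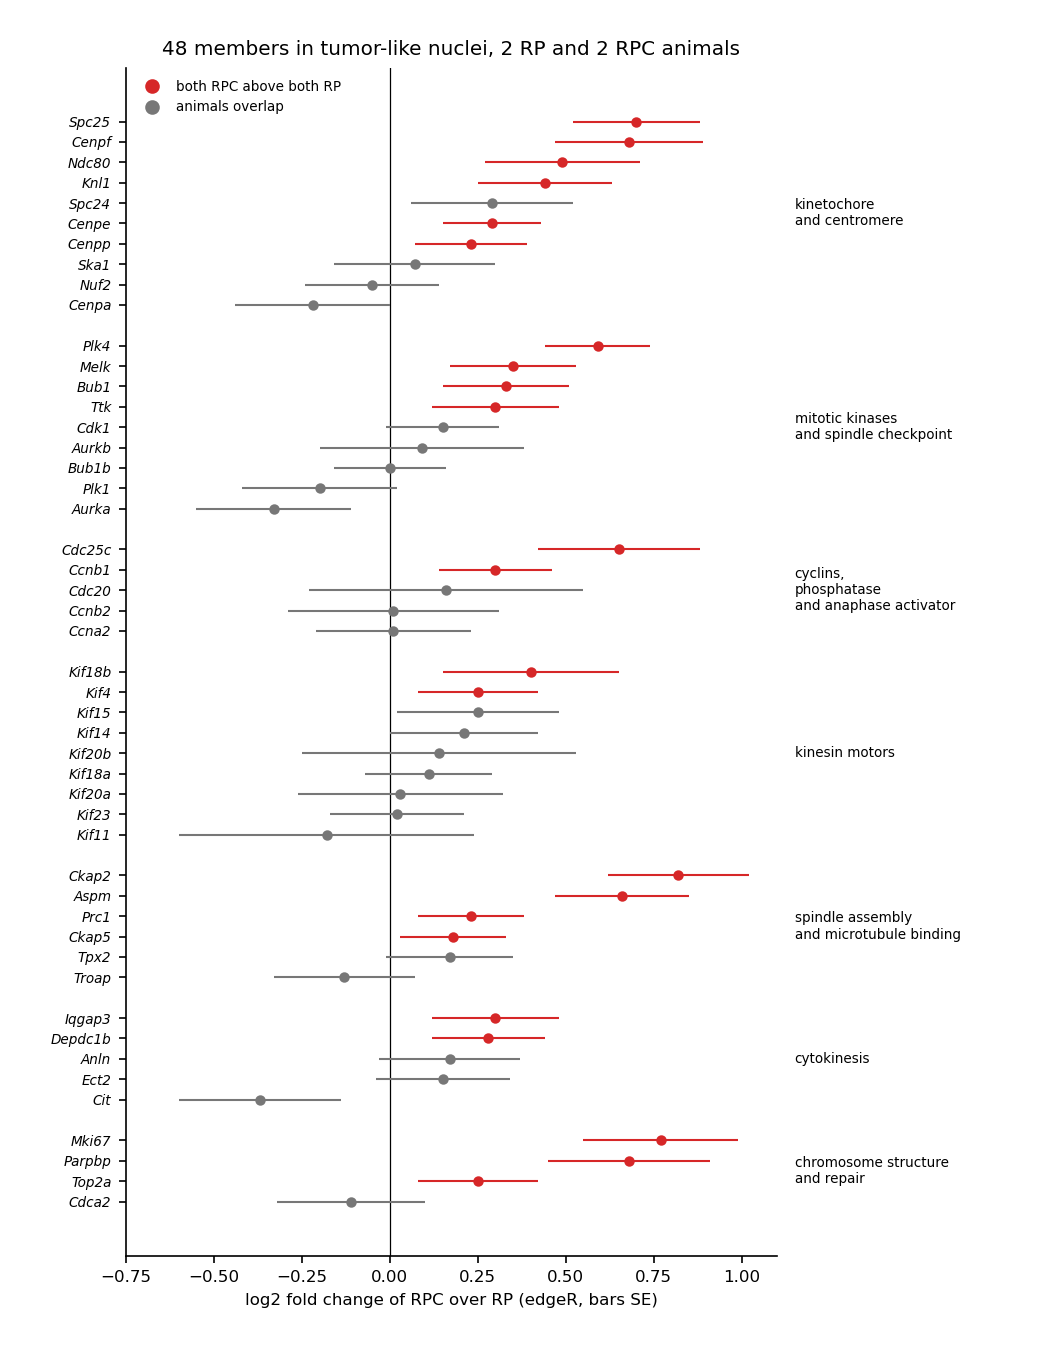
Log2 fold change of RPC over RP in tumor-like nuclei for the 48 genes by role (points, edgeR on sums of 2 RP and 2 RPC animals, bars SE). The 23 genes in red have both RPC animals above both RP animals, the 25 in gray overlap, and Ckap2 (0.82) and Cit (-0.37) mark the ends.

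In the kinetochore and centromere group, 6 of 10 genes had both RPC animals higher, and the median log2 fold change was 0.29. Cenpf, a large protein of the outer kinetochore corona (GRCm39 chromosome 1, 189372752 to 189420315), had 339 and 247 CPM in the RP animals and 437 and 503 CPM in the RPC animals. Both RPC animals exceeded both RP animals, with a log2 fold change of 0.68 (SE 0.21, edgeR adjusted p 0.289). Spc25 of the Ndc80 complex (chromosome 2, 69009753 to 69036574) had 35.9, 37.6, 52.2 and 67.6 CPM (log2 fold change 0.70, SE 0.18, adjusted p 0.280). The levels of Cenpe, a kinesin that carries chromosomes to the spindle equator, were closer together at 248, 242, 285 and 313 CPM (log2 fold change 0.29, SE 0.14, adjusted p 0.383). Of the other subunits of the Ndc80 complex, Ndc80 was higher in both RPC animals, whereas Nuf2 and Spc24 overlapped between the genotypes.

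Among the mitotic kinases and checkpoint genes, 4 of 9 had both RPC animals higher, with a median of 0.15. Plk4 (chromosome 3, 40754427 to 40772633) had 29.1 and 28.6 CPM in the RP animals and 41.9 and 45.0 CPM in the RPC animals, and was the gene of this group with the widest gap between the genotypes (log2 fold change 0.59, SE 0.15, adjusted p 0.278). The checkpoint kinases Bub1b and Ttk differed less. Bub1b had 116, 94.2, 102 and 109 CPM with overlapping animals and a log2 fold change of 0.00 (SE 0.16), and Ttk had 67.7, 53.1, 71.1 and 77.2 CPM (0.30, SE 0.18, adjusted p 0.454). Cdk1, the central kinase of mitotic entry, had 61.5 and 52.7 CPM in RP and 60.3 and 66.8 CPM in RPC, with overlapping animals. Aurka and Plk1, kinases of spindle assembly, had log2 fold changes of -0.33 and -0.20, and the animals overlapped in both.

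Of the 5 genes of the cyclin group, 2 had both RPC animals higher. Cdc25c (chromosome 18, 34866031 to 34885472) had 41.7 and 28.1 CPM in the RP animals and 56.0 and 53.5 CPM in the RPC animals (log2 fold change 0.65, SE 0.23, adjusted p 0.309). Ccnb1, which encodes the cyclin B1 partner of Cdk1, had 28.9, 26.7, 35.2 and 33.2 CPM (0.30, SE 0.16, adjusted p 0.420). Animals overlapped for Ccna2, Ccnb2 and Cdc20. Among the kinesin motors, 2 of 9 genes, Kif18b and Kif4, were higher in both RPC animals. Kif15, a motor that keeps spindle poles apart, had 219, 142, 210 and 220 CPM, and Kif23, a motor of the central spindle, had 169, 127, 139 and 162. RP2 was lowest in both, with log2 fold changes of 0.25 (SE 0.23) and 0.02 (SE 0.19).

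Spindle assembly and microtubule binding held the gene with the largest fold change, Ckap2 (chromosome 8, 22658164 to 22675852), whose promoter window above held both elements. It had 130 and 97.8 CPM in the RP animals and 183 and 218 CPM in the RPC animals. Both RPC animals stood clear of both RP animals, at a fold of 1.76 (log2 fold change 0.82, SE 0.20, edgeR adjusted p 0.271), and DESeq2 gave 0.86 with an adjusted p of 0.0485, the lowest of the alternatives, which reached 0.521 without RPC1. Over the other edgeR fits the adjusted p of the 8 genes was never below 0.05. Aspm, which focuses spindle poles (chromosome 1, 139382486 to 139421829), had 126, 91.4, 176 and 167 CPM (0.66, SE 0.19, adjusted p 0.288). Ckap5 had 268, 227, 281 and 281 CPM (0.18, SE 0.15, adjusted p 0.578). In this group 4 of 6 genes had both RPC animals higher, and Troap and Tpx2 overlapped.

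In cytokinesis, 2 of 5 genes, Iqgap3 and Depdc1b, had both RPC animals higher. Anln, the scaffold of the contractile ring, had 145 and 104 CPM in the RP animals and 146 and 134 CPM in the RPC animals (log2 fold change 0.17, SE 0.20). Cit, the citron kinase of the midbody, had the lowest fold change of the 48, with 328, 213, 206 and 213 CPM (-0.37, SE 0.23, adjusted p 0.477), and RP1 alone stood apart from the other animals. The chromosome structure and repair group had 3 of 4 genes higher in both RPC animals. Mki67 (chromosome 7, 135291513 to 135318299) had 724, 609, 964 and 1314 CPM (0.77, SE 0.22, adjusted p 0.285). Parpbp (chromosome 10, 87926537 to 87982815) had 50.9, 35.9, 77.9 and 61.4 CPM (0.68, SE 0.23, adjusted p 0.304), and RPC1 was highest for it. Top2a had 546, 443, 560 and 612 CPM (0.25, SE 0.17, adjusted p 0.514), so that RP1 and RPC1 nearly met.

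The genotype pattern was also looked for inside the mitosis-high nuclei. There the share of mitosis-high nuclei no longer enters, but their scores still do. Of 1398, 1069, 1759 and 1985 mitosis-high nuclei, 299, 229, 770 and 765 had 20 or more mitotic transcripts per 1000. In their mean transcripts per 1000, 26 of the 48 genes had both RPC animals above both RP animals (27.2% of 10220 genes), 3 had both below (18.5%) and 19 overlapped, with a median log2 ratio of 0.17. Mki67 had 1.45 and 1.55 transcripts per 1000 in mitosis-high nuclei of the RP animals, and 2.17 and 2.76 in those of the RPC animals. Ckap2 had 0.352, 0.345, 0.633 and 0.605, and Cenpf 0.765, 0.777, 1.28 and 1.17. For all 3 the RP animals lay close together and both RPC animals stood above them. Kif23, Cit and Cdca2, a chromatin-bound phosphatase subunit, were the 3 genes lower in both RPC animals, with log2 ratios of -0.09, -0.36 and -0.14. Mitosis-high nuclei were chosen by the sum of the same 48 genes, so these levels are no separate evidence on the genotypes. Levels and makeup also differed. As a percent of all transcripts of the 48 genes in these nuclei, Mki67 had 9.27, 9.89, 11.2 and 14.8. Top2a had 7.84, 8.54, 7.79 and 7.59, and Cdk1 had 0.898, 0.841, 0.809 and 0.813. Both were thus lower in the RPC animals by this share, although higher in mean transcripts per 1000. In tumor-like nuclei with at most 1 mitotic transcript, the sums per animal gave 35 of 48 genes a log2 fold change above 0 with a median of 0.15. The median over 15244 tested genes was -0.004. These nuclei too were chosen on the same 48 genes, and the sums used their counts before thinning.

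Separate gene lists give the surroundings. Of 67 other mitosis genes, 9 had an unadjusted edgeR p under 0.05 and were higher in RPC (7.4% of all tested genes), and 2 were lower (7.73%), with a median log2 fold change of 0.14 (-0.01 over all tested genes) and none called after adjustment. By group the 9 were 5 of 8 genes of condensin, which compacts mitotic chromosomes (Smc2, Smc4, Ncapg, Ncapd3 and Ncapg2), 2 of 9 of the passenger complex and cohesion, 1 of 12 of the inner and 1 of 14 of the outer kinetochore. Ncapg2 had 128 and 132 CPM in the RP animals and 230 and 210 CPM in the RPC animals (log2 fold change 0.76, SE 0.14, adjusted p 0.263), and Smc2 had 157, 137, 205 and 248 (0.63, SE 0.17, adjusted p 0.280). Of the remaining condensin genes, Ncaph2 was lower in both RPC animals (-0.31), and Ncapd2 (0.05) and Ncaph (0.15) overlapped. The other 4 of the 9 were Cenpk and Mis12 of the kinetochore, Sgo2a, a protector of centromeric cohesion, and Esco2, a cohesin acetyltransferase. The lower 2 were Pmf1, a Mis12 complex subunit (-0.48), and the transcription factor E2f4 (-0.84). Over the 30 replication genes the median log2 fold change was 0.15, and none was called after adjustment.

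Within tumor-like nuclei the lists separated more clearly. Of the 65 other mitosis genes with at least 50 transcripts in mitosis-high nuclei of each animal, 41 had over 2 times the CPM of low nuclei in each animal, as did 48 of 48 listed genes and 3.52% of 8690 genes. Of 27 replication genes only 1 did, Rrm2, the ribonucleotide reductase subunit (lowest log2 ratio 1.19). Anaphase-promoting complex genes contributed 3 of 12 and condensin genes 6 of 8.

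The RPC animals differed most from each other for Kif11 and Kif20b, the 2 members on chromosome 19, which was singled out after the values had been seen. Kif11, the motor that separates spindle poles, had 207 and 117 CPM in the RP animals and 95.7 and 191 CPM in the RPC animals. Kif20b, a motor of late cytokinesis, had 159, 98.6, 94.6 and 189 CPM. In both, RP1 and RPC2 were high and RP2 and RPC1 low, and the log2 difference of RPC1 from RPC2 was -0.99. That of RP1 from RP2 was 0.83 for Kif11, the widest of the 48, and 0.68 for Kif20b, below Ccnb2 (0.76), Aurkb (0.75), Cdc20 (0.73) and Kif20a (0.72) of other chromosomes. Over the 223 tested genes of chromosome 19 whose mean level was at least 4 (log2 CPM), the median of RPC1 minus RPC2 was -0.75 and that of RP1 minus RP2 was 0.34. Medians of the other chromosomes with a member lay between -0.09 and 0.07 in the first difference and between -0.07 and 0.07 in the second. Incenp of the chromosomal passenger complex, on the same chromosome, had a log2 difference of RPC1 from RPC2 of -1.26. Subtracting the median of its chromosome from each gene left 36 of the 48 log2 fold changes above 0, with a median of 0.18. The cause was not tested.

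**Figure D5:**
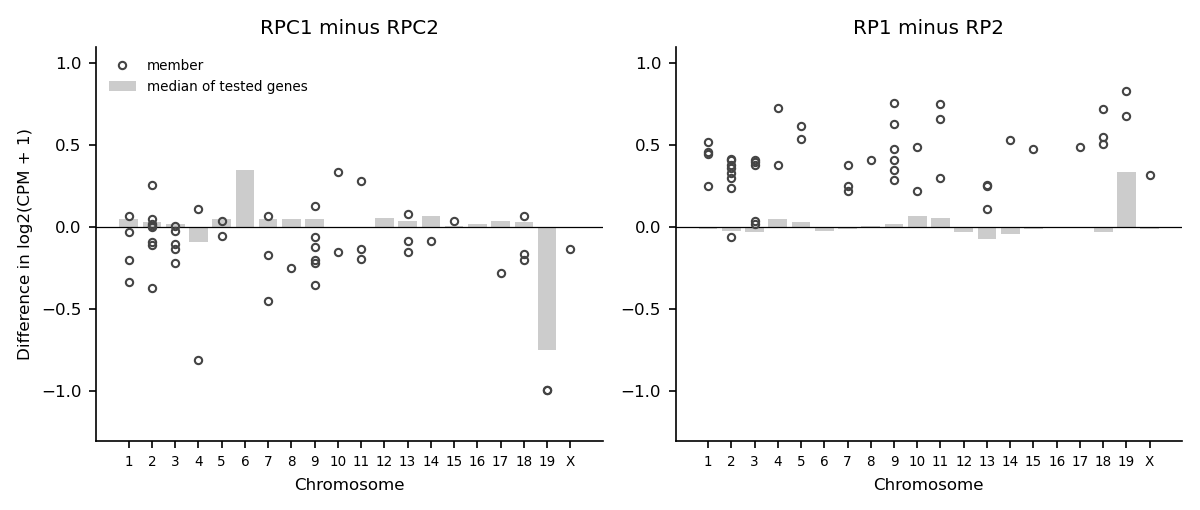
Log2 difference between animals of the same genotype (log2 of CPM plus 1, tumor-like nuclei) by chromosome, as the median over tested genes (gray bars) and for each of the 48 genes (circles). On chromosome 19 the bars stand at -0.75 for RPC1 minus RPC2 and 0.34 for RP1 minus RP2, with Kif11 (-0.99 and 0.83) and Kif20b (-0.99 and 0.68) beyond both, and chromosome 6 (0.35 in RPC) holds no member.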

How the data were processed

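Single-nucleus RNA sequencing (Parse Evercode) was analysed in lung tumors of 2 RP and 2 RPC mice. Per the paper's methods and the labels, the authors aligned reads to GRCm39 and split them by animal with the pipeline of the kit maker. The matrices, as deposited, hold raw transcript counts per nucleus and gene, 1 matrix per animal, from 32299909 to 72446861 transcripts. Of the 12 columns of the deposited table of nuclei, 9 were not used.

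Kept nuclei had at least 300 counts, at most 10% of them mitochondrial, and at most 12000 genes. Clustering (2000 variable genes without the 48 members, 20 principal components, 20 neighbors, Leiden resolution 0.4, seed 1) used Python 3.11.15, scikit-learn 1.9.0 and leidenalg 0.10.2. Clusters were named from marker lists by a rule set after the clusters were seen. Tumor-like clusters had no normal-class score above 0.5 on the log2 scale and a neuroendocrine score of at least -0.5. Their median depth, relative to the median of each animal, was at least 0.3333. Normal classes had a score of at least 1 with at least 3 markers. Clusters of 1953, 140 and 64 nuclei stayed unnamed, with medians of 986, 34830 and 1552 transcripts. All 140 nuclei of the deepest came from RPC1. No doublet caller was run, and tumor-like nuclei may include doublets.

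Nuclei were thinned to 1000 transcripts for shares, with exact (Clopper-Pearson) intervals that cover counting error only. Sums per animal were tested with edgeR 4.0.16 (R 4.3.3, quasi-likelihood, TMM, filterByExpr, two-sided, Benjamini-Hochberg over all tested genes), with the SE taken back from the F statistic, and printed CPM of the sums are TMM-scaled. DESeq2 1.42.0, the study's tool, was an alternative. The procedure was tested on simulated data, and the outcome is not reported here. The largest log2 fold change among the listed genes was 0.82, and the biological coefficient of variation of the edgeR fit was 0.285. The chance of calling such changes at that spread was not tested, so the absence of edgeR calls does not show an absence of difference.

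The members and lists were chosen with earlier results of these data known. Named members are those with an unadjusted edgeR p under 0.05, the 5 largest fold changes, the 2 most counted of each role, and the 5 highest and 5 lowest ratios between nuclei. Some results that the rule names are not reported here. Others are named to complete a count and were chosen after their values were seen. Gene positions are from the GENCODE annotation of GRCm39. The same replicate number marks no shared litter or batch in the labels.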

Additional observations from a re-analysis of the deposited data

How the results depend on the processing

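The count of the 48 genes called between genotypes was 0 in the edgeR fits and 1 (Ckap2, log2 fold change 0.86) with DESeq2, and 13 of 14 alternatives left it at 0. The median log2 fold change of 0.22 lay between 0.06 and 0.43 when 1 animal was left out, the higher value without RP1. The difference in mitosis-high share, 2.55 points, lay between -0.251 and 5.36 points without 1 animal, was 3.68 at 500 transcripts per nucleus and was 4.79 for nuclei with at least 20 mitotic transcripts. In all 16 alternatives it moved from 2.55 by less than the spread between animals (pooled SD 3.63 points). Against endothelial-like nuclei, 29 genes became 19 at 500 transcripts per nucleus and 48 against all normal nuclei with low tumor RNA, an alternative added after the data had been seen. The cause was not tested. The count of 48 genes enriched in high nuclei held in all 12 alternatives.

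Leaving out 1 animal gave log2 fold changes of both signs for 21 of the 48 genes, none of them called, among them Kif11 (-0.74 to 0.30), Kif20b (-0.42 to 0.56), Plk1 (-0.38 to 0.01), Bub1b (-0.14 to 0.16), Kif15 (-0.02 to 0.61), Kif23 (-0.16 to 0.25) and Anln (-0.05 to 0.43). With the replicate number as a block, 0 members were called and the median was 0.23. Animals with the same number share only a number, and their deviations correlated at -0.05 over 20107 genes. The edgeR fit gave a biological coefficient of variation of 0.285 with 2 animals per genotype.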

Other observations

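The tumor-like nuclei fell into 9 clusters, formed without the 48 genes, and in each of them 79.3% to 99.9% of the nuclei came from 1 animal. Their share of mitosis-high nuclei ranged from 1.69% (95% interval 1.37 to 2.06) in a cluster of 5730 nuclei, 98.9% from RPC1, to 96.0% (93.9 to 97.5) in a cluster of 501 nuclei, 90.8% from RPC2. RPC1 contributed 24.9% of its tumor-like nuclei to a cluster with 64.4% mitosis-high nuclei (62.4 to 66.4) and a median of 7078 transcripts before thinning. The main clusters of RP1 had 28.9% and 20.2%, and that of RP2 had 15.6%. No tumor-like cluster dominated by an RP animal thus reached the shares of those 2 RPC clusters. They were singled out after their values had been seen, and held 24.9% of RPC1 and 5.52% of RPC2. The largest clusters of these animals, with 62.8% of RPC1 and 55.7% of RPC2, had 1.69% and 11.1%, below each RP-dominated cluster. Their remaining clusters had 31.3% (RPC1) and 33.2% (RPC2).

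The tenth of tumor-like nuclei with the most mitotic transcripts held 37.2% and 41.8% of them in the RP animals and 44.1% and 38.3% in the RPC animals.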
